A study of Mus musculus with 2 samples.

Results

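Among the CD45+ cells of the mouse RPE and choroid, 638 T cells were selected on measured values: on RNA of the 4 naive T cell markers Lef1, Dapl1, Igfbp4 and Ccr7 and on the absence of RNA that marks effector and Ly49 receptor-bearing lymphocytes. A cell was included if it held at least 1000 UMIs (unique molecular identifiers, each 1 captured RNA molecule), at least 300 genes and less than 10% mitochondrial UMIs. It also had to have at least 2 UMIs summed over Cd3d, Cd3e and Cd3g, 0 of Cd79a, fewer than 5 of Lyz2, 0 summed over Klrg1, Pdcd1 and Gzmk, 0 summed over Klra1, Klra6 and Klra7, and at least 2 summed over the 4 markers. The rule kept 286 of 3418 cells of the flox library (8.37%, 95% exact interval 7.46 to 9.35) and 352 of 3982 cells of the knockout library (8.84%, 7.98 to 9.76). The levels of the genes named in the rule, and the number of markers a cell held, are given as a description, since these genes decided which cells were included.

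The series, whose title concerns interleukin-17 and protective cytokine signalling in degeneration of the retinal pigment epithelium (RPE), holds 2 single-cell RNA libraries, 1 per genotype. The genotypes are IL-17ra fl, here called flox, a name used for alleles flanked by loxP sites, and IL-17RA CKO, titled a KO and here called knockout; Il17ra encodes a chain of the interleukin-17 receptor. Mice of both genotypes received NaIO3, an oxidant that damages the RPE, at 20 mg/kg into the peritoneal cavity, so neither library is from an untreated eye. The Cre driver, the cell type deleted and the number and age of the animals were not given in the sources used here. With 1 library per genotype no comparison between them has a replicate check and no p-value is given. Intervals are 95% intervals for counting error alone, and genotype cannot be told apart from library, software version or the mix of animals.

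Naive T cells are mature T cells that have not yet met their antigen and circulate between blood and lymph nodes. They are guided into lymph nodes by the chemokine receptor CCR7 and leave them through the sphingosine phosphate receptor S1PR1, whose gene is under the control of the transcription factor KLF2. The transcription factors TCF1 (Tcf7) and LEF1 maintain their quiescent state, and activation replaces this programme with effector molecules, inflammatory chemokine receptors and, in tissue, residency genes.

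The selected cells held a median of 9844.5 UMIs and 2848.5 genes in the flox library and 9684.5 UMIs and 2728 genes in the knockout library. Scrublet called 17 flox and 56 knockout cells doublets, of which 0 and 2 were selected cells, and these were kept. No selected cell shared its barcode between libraries (3 barcodes were shared among all cells that passed). The libraries differed in sex: 205 flox selected cells had Xist and no Y-linked UMI and 32 the reverse, against 131 and 124 in the knockout library. Cells of both sexes were thus present in both libraries at unequal shares, and values within each sex are given for the marker counts, the co-receptors, the share of T cells and the interferon, effector and residency lists.

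The name naive-like held for a portion of the cells only. Lef1, which encodes the LEF1 transcription factor (chr3:131110471-131224356, + strand, GENCODE vM21 on GRCm38), was detected in 96.2% of flox and 95.7% of knockout cells. The other markers were detected in fewer: Ccr7 (chr11:99144196-99155077, - strand) in 57.7% and 70.7%, Dapl1 (chr2:59484653-59505020, + strand) in 30.8% and 41.2% and Igfbp4 (chr11:99041244-99054392, + strand), an insulin-like growth factor binding protein, in 25.2% and 41.5%, flox first. As a background for free RNA, B cells (Cd79a of at least 2 UMIs and no Cd3d, Cd3e or Cd3g), at median depths of 6068.5 and 6399 UMIs, held a Lef1 UMI in 3.19% and 3.14% of cells. Dapl1 was seen in 0 of 596 flox B cells, a zero that allows up to 0.503% (3 counts of the total), and in 1 of 925 knockout B cells. Igfbp4 was seen in 1 flox B cell and in 0 of the knockout ones, which allows up to 0.324%. Ccr7 is a B cell gene as well and was found in 73.5% and 74.8% of B cells. The other T cells are those that passed the Cd3, Cd79a and Lyz2 steps but failed a later one. Among them a Lef1 UMI was found in 43.7% of flox and 39.2% of knockout cells. For Ccr7 these shares were 9.40% and 5.66%, for Dapl1 2.91% and 4.07% and for Igfbp4 0.094% and 0.877%.

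Counting how many of the 4 markers a cell held showed how mixed the selected cells were. Exactly 1 marker was detected in 107 of 286 (37.4%, 31.8 to 43.3) in the flox library and 81 of 352 (23.01%, 18.7 to 27.8) in the knockout library. In 101 flox and 73 knockout cells that marker was Lef1 alone. Cells with 3 or 4 markers made up 97 of 286 (33.9%, 28.4 to 39.7) in the flox library and 178 of 352 (50.6%, 45.2 to 55.9) in the knockout library, a difference of 16.7 percentage points (8.96 to 24.03). The difference was 18.1 points among female cells (7.21 to 28.5) and 37.5 points among male cells, of which only 4 flox cells had 3 or 4 markers. It was 11.6 points (3.78 to 19.0) when each cell was first thinned to 3000 UMIs. The same 4 genes selected the cells, so these differences are a description only.

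**Figure D1:**
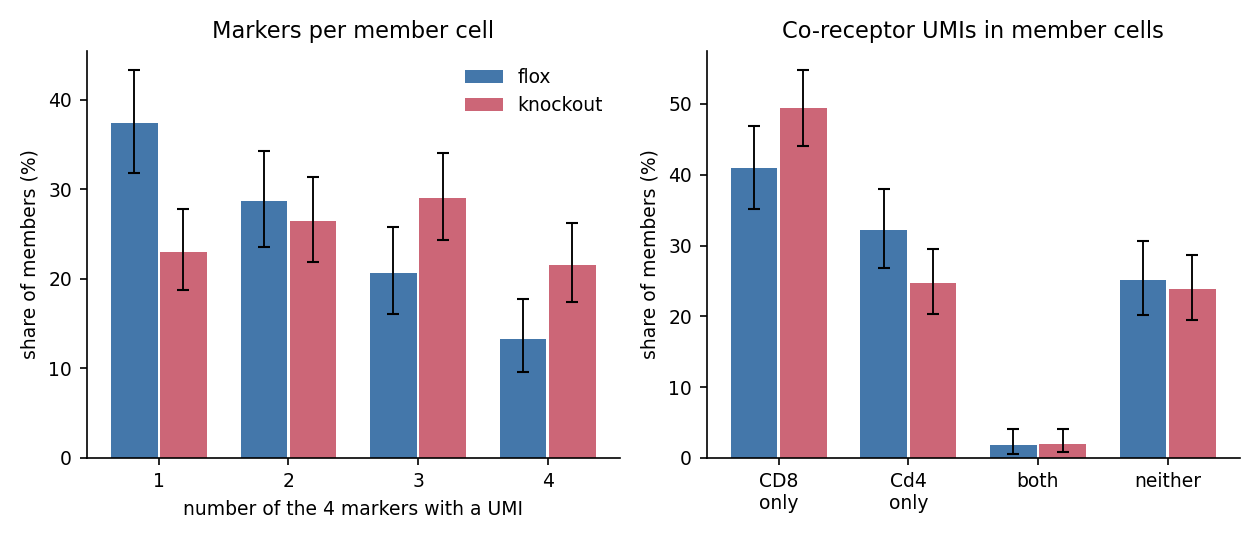
Left: share of the selected cells (%) by how many of Lef1, Dapl1, Igfbp4 and Ccr7 had a UMI. Right: share of the selected cells by co-receptor UMIs (CD8: Cd8a or Cd8b1 without Cd4). Bars are the flox (286 cells) and knockout (352 cells) libraries and error bars exact 95% intervals for counting error; 1-marker cells were 37.4% of flox and 23.01% of knockout cells.

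Genes that the rule did not use followed the number of markers. Actn1, which encodes an actin-binding alpha-actinin, was at 26.1 and 35.5 CPM (UMIs per 1000000 UMIs of the cells named, flox then knockout) in 1-marker cells, at 85.4 and 149.6 CPM with 2 markers, 174 and 192 CPM with 3 and 189 and 183 CPM with 4. In the other T cells of the same libraries, which are the T cells that failed a later step of the rule, it was at 14.7 and 13.4 CPM. An Actn1 UMI was found in 10.3% of flox and 16.05% of knockout cells with 1 marker and in 81.6% of flox and 75% of knockout cells with 4. Tcf7 was at 162 and 199 CPM with 1 marker and 442 and 436 CPM with 4, and Bach2, a repressor of effector differentiation, at 339 and 238 CPM and 949 and 678 CPM. Il7r, the receptor chain for the survival cytokine IL-7, varied less, from 674 and 762 CPM to 997 and 939 CPM.

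Effector genes ran the other way. Ccl5, an inflammatory chemokine stored by memory T cells, was at 2429.9 and 3806 CPM in 1-marker cells, 2401 and 2774 CPM with 2 markers, 723 and 451 CPM with 3 and 22.8 and 33.4 CPM with 4. S100a6, a calcium-binding protein gene of memory T cells, was at 1485 and 1567 CPM with 1 marker, below its level in the other T cells (1925 and 1986 CPM), and at 13.7 and 5.56 CPM with 4. Cxcr6, a chemokine receptor of tissue T cells, was at 298 and 356 CPM with 1 marker and 6.83 and 13.3 CPM with 4. Cd44, the adhesion receptor used to sort memory cells, was at 178 and 176 CPM with 1 marker and 13.7 and 21.1 CPM with 4. For S100a6, Cxcr6 and Cd44 the 1-marker cells were much nearer the T cells outside the rule than the 4-marker cells were. For all 4 genes the 4-marker cells were far below the T cells outside the rule.

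**Figure D2:**
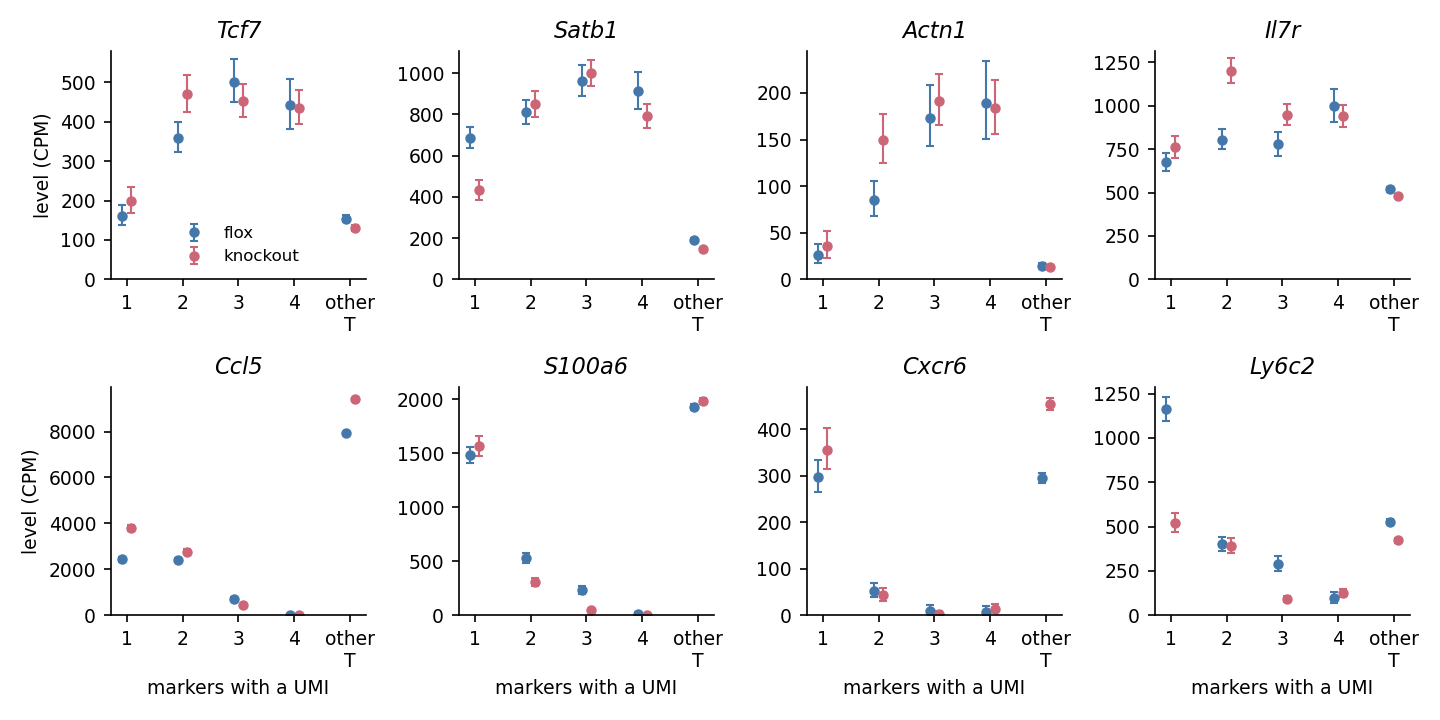
Level (CPM) of 4 naive genes (top) and 4 effector or tissue genes (bottom) in the selected cells with 1, 2, 3 or 4 markers detected and in the other T cells, in the flox and knockout libraries. Points are levels of summed UMIs and bars 95% counting intervals. S100a6 and Cxcr6 in 1-marker cells lie much nearer the other T cells than in 4-marker cells, where they are close to 0.

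Per cell the pattern was the same. The UMIs of 33 effector and memory genes per 10000 UMIs of the cell had medians of 120.5 and 125 (flox and knockout) with 1 marker, 52.1 and 24.2 with 2, 15.3 and 9.91 with 3 and 10.8 and 13.6 with 4, against 153 and 197 in the other T cells. The 20 naive and quiescence genes, a list without the 4 markers, had medians of 66.6 and 76.2 with 1 marker and 104 and 105 with 4, against 57.3 and 53.6 in the other T cells. The 2-marker cells were split, with cells at both low and high effector values. At the rule's threshold, 48 flox and 27 knockout cells had a marker sum of exactly 2, and 73 and 81 T cells that met every other step had a sum of 1. The effector genes summed to 12573 and 14637 CPM just inside and 12531 and 20630.5 CPM just outside it, and the naive genes to 6679.8 and 6205 against 6274 and 5621 CPM.

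**Figure D3:**
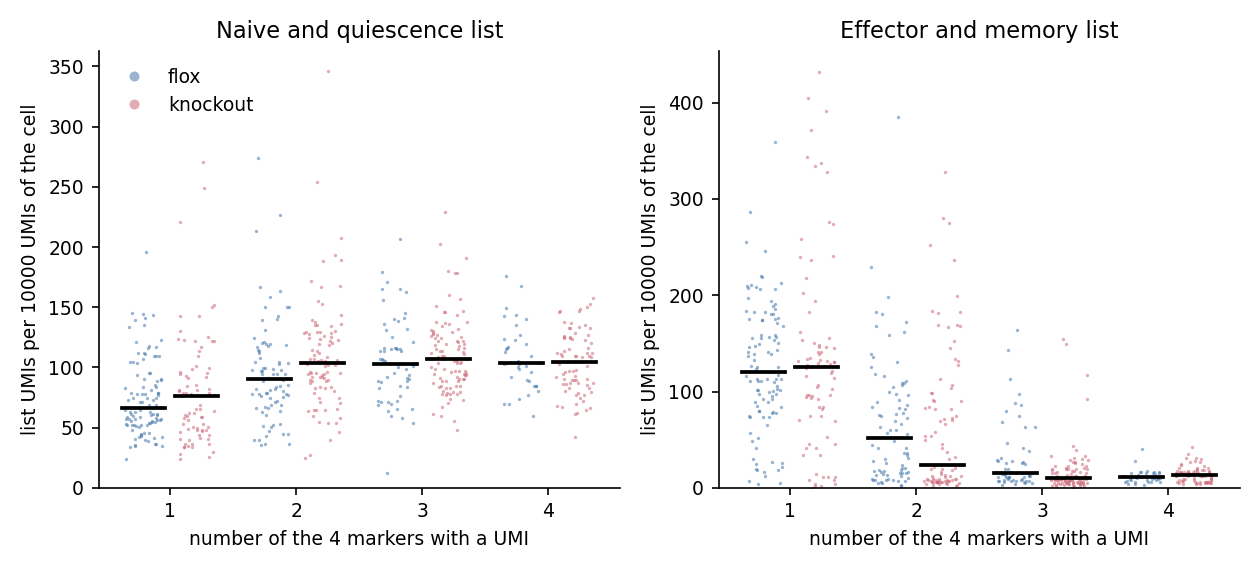
UMIs of the naive and quiescence list (left) and of the effector and memory list (right) per 10000 UMIs of each selected cell, by the number of markers detected. Each point is 1 cell of the flox or knockout library and black lines are medians; the effector median is 120.5 and 125 with 1 marker and 10.8 and 13.6 with 4.

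The co-receptors were not part of the rule. A Cd8a or Cd8b1 UMI, which marks the CD8 lineage (both genes on chromosome 6), was found in 122 of 286 (42.7%, 36.9 to 48.6) in the flox library and 181 of 352 (51.4%, 46.1 to 56.8) in the knockout library, a difference of 8.76 percentage points (0.974 to 16.4). By sex it was 13.6 percentage points (2.61 to 24.1) in female and 8.77 percentage points (-10.1 to 26.9) in male cells. The difference was smaller and its interval included 0 with a marker sum of at least 3 (5.56 points, -2.79 to 13.8), with 2 or more markers (2.63, -6.63 to 11.9) and with cells thinned to 3000 UMIs before the rule was applied (1.16, -7.59 to 9.88). With the selected cells thinned to 3000 UMIs a cell, which left out 4 flox and 10 knockout cells, the shares were 39.01% and 45.9% and the difference 6.899 percentage points (-0.898 to 14.5). The B cell background was 0.671% and 2.16% unthinned and 0.372% and 0.799% thinned. A Cd4 UMI was found in 97 of 286 (33.9%, 28.4 to 39.7) in the flox library and 94 of 352 (26.7%, 22.2 to 31.7) in the knockout library, a difference of -7.21 percentage points (-14.4 to -0.0671), and thinned in 18.4% and 15.2%, a difference of -3.24 percentage points (-9.24 to 2.62). By sex the Cd4 difference was -5.27 percentage points (-14.7 to 4.797) in female and -15.8 percentage points (-34.1 to 0.144) in male cells. A Cd4 UMI was seen in 0 of 596 flox and 0 of 925 knockout B cells, zeros that allow up to 0.503% and 0.324% by the same limit.

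By both readings together, 117 flox and 174 knockout cells had CD8 UMIs without Cd4, 92 and 87 had Cd4 without CD8, 5 and 7 had both, and 72 and 84 had neither. Cells with neither were 45.8% and 45.7% of 1-marker cells but 2.63% and 11.8% of 4-marker cells. The 1-marker cells were shallower, at medians of 8948 and 8099 UMIs against 10841.5 and 12100 with 4 markers. The part of depth in this contrast was not tested. Among cells with 3 or 4 markers a CD8 UMI was present in 57.7% and 61.8%, a difference of 4.07 percentage points (-7.81 to 16.1), and a Cd4 UMI in 39.2% and 24.7%, a difference of -14.5 percentage points (-25.95 to -3.06). In the other T cells CD8 UMIs without Cd4 marked 48.3% and 65.1%, so the knockout library also had the higher CD8 share outside the rule.

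As a share of T cells, the selected cells did not differ between libraries beyond counting error, at 286 of 1350 (21.2%, 19.03 to 23.5) in the flox library and 352 of 1606 (21.9%, 19.9 to 24.02) in the knockout library, a difference of 0.733 percentage points (-2.26 to 3.69). Among female T cells the shares were 21.5% and 26.1%, a difference of 4.66 percentage points (0.104 to 9.39), and among male T cells 16.1% and 19.02%, a difference of 2.94 percentage points (-3.46 to 8.42). Cells with 3 or 4 markers were 97 of 1350 (7.19%, 5.87 to 8.695) in the flox library and 178 of 1606 (11.1%, 9.59 to 12.7) in the knockout library of T cells, a difference of 3.898 percentage points (1.81 to 5.96). By sex they were 7.76% and 14.2% of female and 2.01% and 9.51% of male T cells, higher in the knockout library in both. Cells with 1 marker were 7.93% and 5.04% of T cells, a difference of -2.88 percentage points (-4.72 to -1.11). Shares by number of markers rest on the genes of the rule and are a description.

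The marker genes themselves, which the rule used, were at higher levels in the knockout cells. Lef1 was at 649 CPM (621 to 678) in the flox library and 813 CPM (783 to 843) in the knockout library, and Dapl1 at 138 CPM (126 to 152) in the flox library and 205 CPM (190.3 to 220.5) in the knockout library. Igfbp4 was at 91.8 CPM (81.4 to 103) in the flox library and 172 CPM (159 to 187) in the knockout library, and Ccr7 at 179.7 CPM (165 to 195) in the flox library and 269 CPM (252 to 287) in the knockout library. In cells with 3 or 4 markers the 2 libraries were closer, with Lef1 at 916 and 1004 CPM, Dapl1 at 332 and 339 CPM, Igfbp4 at 245 and 311 CPM and Ccr7 at 341 and 356 CPM. The marker sum had a median of 7 UMIs a cell and a highest value of 92 in the flox library, and a median of 12 and a highest value of 62 in the knockout library.

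Against the other T cells of the same library (1064 flox and 1254 knockout cells), several genes outside the rule were higher in the selected cells of both libraries. Satb1, a chromatin organiser of T cell development, was at 816 and 792 CPM against 192 and 146 CPM, a ratio of 4.25-fold (3.998 to 4.52) in the flox library and 5.42-fold (5.08 to 5.77) in the knockout library. Actn1 was higher by 6.76-fold (5.51 to 8.34) in the flox library and 11.01-fold (9.09 to 13.4) in the knockout library. Ifngr2, the signalling chain of the interferon-gamma receptor, was higher by 3.91-fold (3.104 to 4.93) in the flox library and 6.94-fold (5.72 to 8.44) in the knockout library, while its partner Ifngr1 was at 497 and 454 CPM in the selected cells against 638 and 690.4 CPM. St8sia6, a sialyltransferase gene, was higher by 6.85-fold (5.1 to 9.29) in the flox library and 9.52-fold (6.54 to 14.1) in the knockout library, and Dusp10, a phosphatase of MAP kinases, by 3.41-fold (3.08 to 3.78) in the flox library and 5.55-fold (4.96 to 6.22) in the knockout library. Others among the 15 genes that were highest by the smaller of both ratios were Gm4258, Tmem108, Fam241a, Rapgef4, Usp28, Rflnb, Patj, Tubb2a and Sh3bp5, with smaller ratios of 3.15 or more.

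The genes that were lower in the selected cells than in the other T cells included effector, checkpoint and type 17 genes. Il17a, the cytokine that signals through the receptor named in the genotype, was at 6.76 and 2.55 CPM in the selected cells against 62.6 and 62.7 CPM in the other T cells. Lag3, an inhibitory receptor of activated T cells, was at 2.898 and 1.98 CPM in the selected cells against 44.8 and 30.4 CPM in the other T cells, and Havcr2, which encodes the checkpoint receptor TIM-3, at 1.61 and 1.13 CPM in the selected cells against 14.6 and 18.9 CPM in the other T cells. Ccl3, an inflammatory chemokine gene, was at 0.644 and 1.699 CPM in the selected cells against 33.2 and 37.4 CPM in the other T cells. Ncr1, a receptor of natural killer cells, was at 0.322 and 1.13 CPM in the selected cells against 12.6 and 12.6 CPM in the other T cells, with 1 and 4 UMIs in the selected cells. Ablim3, an actin-binding protein gene, had 0 UMIs in the flox selected cells against 19.1 CPM in the other T cells, at least 19.7-fold lower against a limit of 3 UMIs over the selected cells. In the knockout library Ablim3 was at 1.98 against 19.1 CPM. Fat3, a cadherin gene, had 0 in the knockout selected cells against 14.4 CPM, at least 17-fold lower by the same limit. In the flox library Fat3 was at 0.644 against 13.8 CPM. Abi3bp, Cacng8, Prr5l, Serpina3g, Smyd1, Selenom, Ppp1r14c and Stk32c completed the 15 that were lowest in both libraries. The rule removed every cell with Klrg1, Pdcd1, Gzmk or the 3 Ly49 genes, so for genes expressed in the same cells as these a lower level follows in part from the selection.

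Genes of some other lineages were detected. Foxp3, the regulatory T cell factor, was detected in 4.196% of flox and 1.705% of knockout cells at 12.9 and 3.96 CPM, and Trdc, the constant segment of the gamma-delta T cell receptor, in 6.64% of flox and 6.82% of knockout cells at 51.8 and 46.4 CPM. The 8 regulatory T cell genes summed to 525 and 296 CPM over all selected cells. They summed to 1054 and 702 CPM with 1 marker and 229 and 100 CPM with 3 or 4, against 905 and 619 CPM in the other T cells. The 13 gamma-delta and type 17 genes summed to 202 and 161 CPM over all selected cells, and to 326 and 497 CPM with 1 marker against 26.1 and 37.7 CPM with 3 or 4. Lef1 and Dapl1 are also expressed by developing T cells, but Rag1, Rag2 and Arpp21, genes of thymocytes, had 0 UMIs in both libraries, which allows up to 0.966 and 0.849 CPM, and Ptcra had 0 and 1. Not all of the 9 genes of the thymocyte list were empty: 4 had at least 20 UMIs, and the list summed to 663 and 648 CPM. The sum was 817 and 699 CPM with 3 or 4 markers and 594 and 622 CPM in the other T cells. The RPE gene Rpe65 also had 0 UMIs in both, and the 10 RPE and retina genes summed to 14.5 and 9.34 CPM. The 13 B cell genes summed to 169 and 399 CPM, of which 1 knockout cell, called a doublet, held 53.1%.

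T cell receptor V segments were diverse. A Trbv segment was seen in 118 flox and 126 knockout cells, over 21 and 22 segments, and the commonest was Trbv12-2 in 15 flox cells (12.7%, 7.29 to 20.1) and Trbv13-2 in 17 knockout cells (13.5%, 8.06 to 20.7). In T cells with Klrg1, Pdcd1 or Gzmk the commonest was Trbv12-2 in both, at 15.3% (11.1 to 20.4) and 19.1% (14.4 to 24.5). In the flox library this interval overlaps that of the selected cells. In the knockout library the commonest segments differ, so their shares are not of the same segment. A Trav segment was seen in 84 and 102 selected cells over 40 and 42 segments. The commonest was Trav16n in the flox library (10.7%, 5.02 to 19.4) and Trav16 in the knockout library (8.82%, 4.11 to 16.1). In T cells with Klrg1, Pdcd1 or Gzmk it was Trav16n (11.3%, 7.04 to 16.9) and Trav21-dv12 (16.3%, 12.6 to 20.7).

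Between the libraries, Il17ra itself (chr6:120463247-120487559, + strand) was at 89.8 CPM (79.6 to 101) in the flox library and 110.4 CPM (99.7 to 122) in the knockout library, and was found in 54.2% of flox and 59.1% of knockout cells. The reads are from the 3' end and the sources used here do not say which exons were deleted, so this level does not check the genotype. Of 3211 genes with at least 50 UMIs over both libraries' selected cells and 50 CPM in the higher library, 5 were called higher in the knockout library (0.156%) and 47 lower (1.46%), where a call means that the 95% interval of the ratio lay wholly beyond 1.5-fold. The median log2 ratio over 10237 genes with at least 20 UMIs was -0.07, with 4128 of them higher and 6109 lower in the knockout library. Igfbp4, a gene of the rule, was among the 5.

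Ifngr2 was called higher. It was at 56.7 CPM (48.6 to 65.7) in the flox library and 104 CPM (93.3 to 115) in the knockout library, a ratio of 1.83 (1.52 to 2.201), and was found in 32.5% of flox and 46.6% of knockout cells. It also varied with the number of markers, from 14.5 and 27.3 CPM with 1 to 68.3 and 143 CPM with 3 and 148 and 142 CPM with 4, so that the libraries were apart with 3 markers and level with 4. The other 3 calls were the antigen presentation genes Cd74, H2-Aa and H2-Eb1. Cd74 had a ratio of 5.66 (4.52 to 7.16), but 85.9% of its 573 knockout UMIs came from 1 cell, and for H2-Aa that share was 86.4%. Without the highest cell of each library the ratio of Cd74 was 0.838, and with the called doublets left out 2 genes were called higher in place of 5.

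The genes called lower included interferon, effector and proliferation genes. Ikzf2, which encodes the transcription factor Helios, was at 190.3 CPM (175 to 206) in the flox library and 69.6 CPM (61.2 to 78.9) in the knockout library, a ratio of 0.366 (0.314 to 0.425), with 439 and 189.8 CPM in 1-marker cells and 36.8 and 20.1 CPM with 3 or 4. Klra9, a Ly49 receptor gene outside the rule, was at 57.3 CPM in the flox library and 19.5 in the knockout library, most of it in 1-marker cells (157 and 92.8 CPM), and its log2 ratio was 1.48 in cells with CD8 UMIs only. Hist1h2ap, a histone gene, had a ratio of 0.128, 1 flox cell holding 83.5% of the UMIs, and Top2a, a topoisomerase of dividing cells, of 0.317. Among cells with CD8 UMIs only the log2 ratio was 1.04 (0.29 to 1.90) for Hist1h2ap and 0.61 (-0.11 to 1.41) for Top2a, and with 3 or 4 markers 0.87 (0.088 to 1.77) and 0.35 (-0.42 to 1.21), so the sign turned for both and the intervals of Top2a included 0. The transcripts Gm15614 and A330040F15Rik, of unstated function, were lower as well, at ratios of 0.332 and 0.379.

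The antiviral genes that type I interferon switches on were lower in the knockout cells as a group. Of 27 list genes with enough UMIs all 27 had a lower level, and the median log2 ratio was -1.03 against -0.07 for all genes, and 5 of the 11 tested were called lower and 0 higher, against 1.46% of all genes tested. Their summed level was 2477 and 1198 CPM. Ifi27l2a, an interferon-inducible mitochondrial protein gene, was at 982 CPM (948 to 1018) in the flox library and 371 CPM (351 to 392) in the knockout library, a ratio of 0.378 (0.354 to 0.403). Isg15, a ubiquitin-like modifier, was at 115 CPM (104 to 128) in the flox library and 41.1 CPM (34.6 to 48.3) in the knockout library, a ratio of 0.356 (0.292 to 0.433), and was found in 32.2% of flox and 18.2% of knockout cells. Ifit3, a gene of the interferon-induced Ifit family, was at 63.8 CPM (55.2 to 73.3) in the flox library and 21.5 CPM (16.95 to 26.9) in the knockout library, a ratio of 0.337 (0.256 to 0.442). Bst2, which encodes tetherin, was at 194 CPM (179 to 211) in the flox library and 94.8 CPM (84.96 to 106) in the knockout library, a ratio of 0.488 (0.425 to 0.558), and Isg20, an exonuclease gene, at 50.9 and 20.1 CPM. Ifitm3, an interferon-inducible membrane protein outside the list, was at 84.4 CPM (74.5 to 95.2) in the flox library and 17.8 CPM (13.7 to 22.8) in the knockout library, a ratio of 0.211 (0.158 to 0.279), but its log2 ratio was 0.38 (-0.59 to 1.45) in cells with CD8 UMIs only. Irf7, the interferon regulatory factor that amplifies the response, was at 58.9 and 31.1 CPM. The receptor chain Ifnar1 was at 88.2 and 89.5 CPM, a ratio of 1.01 (0.8598 to 1.196). By sex the log2 ratio of Ifit3 was -0.91 (-1.48 to -0.39) in female and -3.22 (-4.06 to -2.49) in male cells, and that of Ifitm3 -1.05 (-1.58 to -0.58) and -3.57 (-4.67 to -2.66).

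The summed level of myeloid markers was lower as well. The 14 myeloid genes summed to 995 and 569 CPM in the selected cells, a ratio of 0.572 (0.541 to 0.605), with 2 of 5 tested called lower (1.46% over all genes), Ly6c2 and Ifitm3, which T cells can express too. Most of the fall in the sum lay in these 2 genes, and Ly6c2 is also in the effector and memory list. Over the 8 genes with enough UMIs the median log2 ratio was -0.23, with 6 lower and 2 higher. The defining myeloid genes were near 0, with Csf1r, the receptor of a macrophage growth factor, at 6 and 7 UMIs, Itgam at 4 and 5, S100a8 at 1 and 3 and the complement gene C1qa at 0 and 18, all 18 in 1 cell. In flox barcodes of 100 UMIs or fewer, Ifi27l2a was at 1344 CPM and S100a6 at 1847 CPM, above their levels in the flox selected cells (982 and 710.3 CPM). The knockout matrix holds no such barcodes, and the part of free RNA in the differences was not tested.

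The promoters of Isg15 and Ifit3 are shown because both genes were called lower and both hold the letters of the interferon-stimulated response element, which the interferon-activated complex ISGF3 is known to bind. Each runs 5′ to 3′ on the strand of its gene from 250 bases before to 50 bases after the transcription start (RefSeq, GRCm38.p6). Isg15 lies at chr4:156200769-156201068 on the - strand and Ifit3 at chr19:34583279-34583578 on the + strand. Capitals mark each match to 2 copies of TTTC separated by any 2 bases, on either strand, counted without overlap on a strand.
Isg15: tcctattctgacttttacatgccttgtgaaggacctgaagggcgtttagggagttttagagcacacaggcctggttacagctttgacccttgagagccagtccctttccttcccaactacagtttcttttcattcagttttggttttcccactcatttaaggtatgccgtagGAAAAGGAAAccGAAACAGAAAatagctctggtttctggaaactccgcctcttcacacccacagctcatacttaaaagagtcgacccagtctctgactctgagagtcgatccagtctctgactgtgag
Ifit3: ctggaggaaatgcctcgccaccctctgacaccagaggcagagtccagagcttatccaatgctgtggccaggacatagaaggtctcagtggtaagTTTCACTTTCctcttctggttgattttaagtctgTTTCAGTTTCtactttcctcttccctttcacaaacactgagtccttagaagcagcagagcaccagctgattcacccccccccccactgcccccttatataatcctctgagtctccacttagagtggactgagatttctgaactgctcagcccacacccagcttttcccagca
Each sequence holds 2 matches. Of the 21 list genes with a promoter in the RefSeq set, 13 (61.9%) held a match, against 1 of 16 naive and quiescence genes (6.25%), 2 of 27 effector and memory genes (7.41%) and 1079 of 27025 genes in all (3.99%). A match is a description of these letters and not evidence of binding in these cells.

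The interferon list was also measured within groups of the selected cells. The median log2 ratio of the list was -0.91 with 1 marker, -0.73 with 2, -0.56 with 3 and -0.36 with 4. The list summed to 4455 and 2001 CPM with 1 marker and to 1322 and 998 CPM with 4, so flox 1-marker cells stood highest. It was -0.67 in cells with CD8 UMIs only, -0.65 in those with Cd4 only and -1.58 in those with neither. By sex it was -0.81 in female cells, with 26 of 26 genes lower, and -2.02 in male cells, with 22 of 22 lower over 32 flox cells. In the other T cells it was -1.20, with 27 of 27 lower, and in B cells -0.42. The list was lower outside the selected cells too, and whether the size of the difference varies between cell groups was not tested.

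**Figure D4:**
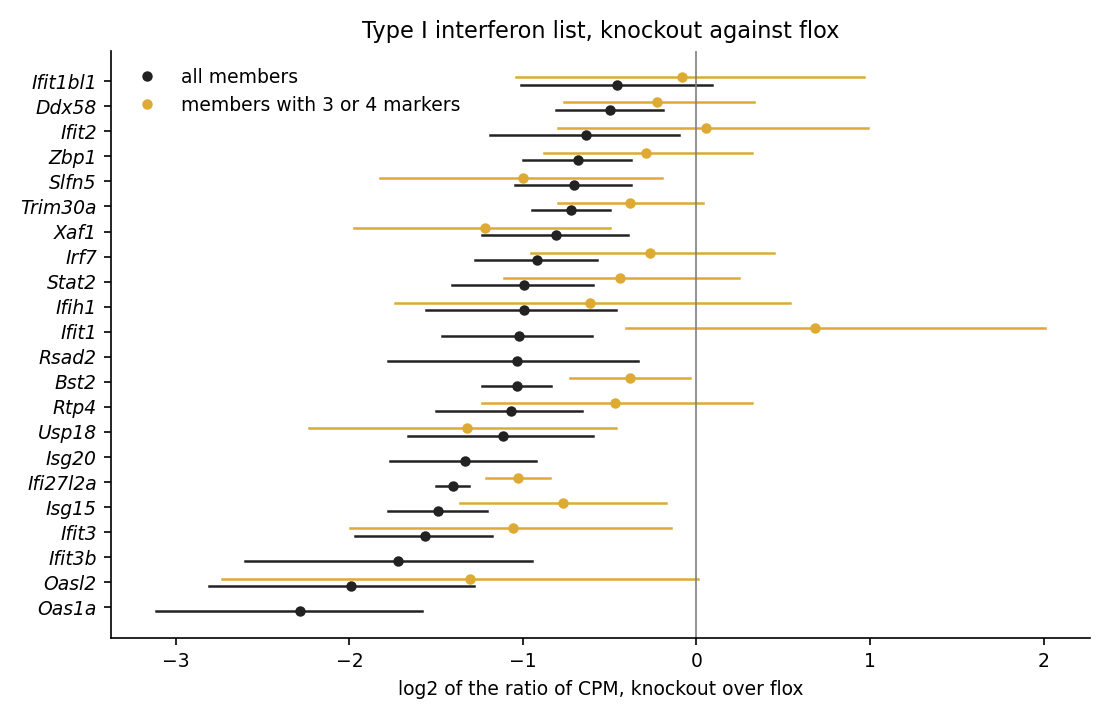
Log2 ratio of CPM, knockout over flox, of type I interferon genes with at least 50 UMIs in the selected cells, for all selected cells (black) and, where a gene had 20 UMIs there, for those with 3 or 4 markers (yellow). Lines are 95% counting intervals; every black point lies below 0, with a median over the whole list of -1.03, and most yellow points lie to the right of their black ones, with a median over the list of -0.44.

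Effector genes were lower in the knockout cells, at a lower level for 31 of 32 list genes (6109 of 10237 over all genes). Their median log2 ratio was -0.43, and 5 of 27 tested were called lower, against 1.46% of all genes tested. Ly6c2, a surface antigen of memory CD8 T cells, was at 587 CPM (560.4 to 615) in the flox library and 262 CPM (245 to 279) in the knockout library, a ratio of 0.446 (0.412 to 0.483), and S100a6 at 710.3 CPM (681 to 741) in the flox library and 414 CPM (394 to 436) in the knockout library, a ratio of 0.584 (0.546 to 0.624). Tbx21, which encodes T-bet, was at 75.03 and 33.4 CPM, Gzmb, the cytotoxic protease granzyme B, at 62.5 and 28.6 CPM, and Klrk1, the activating receptor NKG2D, at 179.7 and 95.98 CPM, all 3 called lower. Ccl5 was at 1710.2 and 1608 CPM, a ratio of 0.9402 (0.905 to 0.976). In 1-marker cells the effector median was 0.07, with 18 genes higher and 14 lower, with 2 markers -0.19, with 3 -1.19 (23 of 25 lower) and with 4 0.24 (4 of 15 lower). It was -0.15 (-0.49 to 0.11) in cells with CD8 UMIs only, -0.24 with a marker sum of at least 1, -0.46 in female and -0.81 in male cells. The lower effector level over all selected cells stood beside the smaller share of 1-marker cells in the knockout library (23.01% against 37.4%), and the part this share plays was not tested. In the other T cells the effector median was 0.25, of the opposite sign.

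Tissue residency genes were lower for 10 of 10 measured (6109 of 10237 over all genes), with a median of -0.52 and 1 of 7 called lower (1.46% over all genes), Xcl1, a chemokine gene, at 85.3 and 34.8 CPM. The median was -0.19 (-0.51 to 0.038) with a marker sum of at least 1, -0.27 (-0.81 to 0.24) after thinning before the rule, -0.29 in cells with CD8 UMIs only, -0.15 (-2.67 to 0.30) with 3 or 4 markers, -0.60 in female and -0.90 in male cells. Rgs1, a regulator of chemokine signalling, was at 139 and 90.9 CPM, and Cd69, which retains T cells in tissue, at 282 and 279 CPM with a ratio of 0.989 (0.902 to 1.08). Of 17 activation and checkpoint genes 15 were lower (6109 of 10237 over all genes), with a median of -0.42 and 0 of 8 called (1.46% called lower over all genes). The median was -0.087 (-0.54 to 0.058) with a marker sum of at least 3. In this group Icos, a costimulatory receptor, was at 313 and 196 CPM and Ctla4, an inhibitory one, at 216 and 151 CPM. All 6 measured regulatory T cell genes were lower (6109 of 10237 over all genes), with a median of -0.56 and Ikzf2 as the only call of 3 tested (1.46% called lower over all genes). Foxp3 rested on 40 and 14 UMIs.

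Naive and quiescence genes were a little higher, 15 of 20 (4128 of 10237 over all genes), with a median of 0.14. Of the 20 tested 0 were called, against 0.156% called higher and 1.46% lower over all genes. Klf2 was at 566 CPM (539.6 to 593) in the flox library and 828 CPM (798 to 858) in the knockout library, a ratio of 1.46 (1.38 to 1.55), and Il7r at 783 CPM (752 to 815) in the flox library and 969 CPM (936 to 1002) in the knockout library, a ratio of 1.24 (1.17 to 1.304). Tcf7 had a ratio of 1.19 (1.097 to 1.29), and S1pr1 of 1.099 (1.01 to 1.19). Satb1 was level, with a ratio of 0.971 (0.9201 to 1.03), as was Foxp1, a factor that holds T cells in quiescence, with 1.04 (0.988 to 1.1). The 17 homing and egress genes had a median of -0.05, with 7 higher and 10 lower, near the split over all genes (4128 higher and 6109 lower). In this list Itgb7, an integrin chain for gut homing, was at 202 and 201 CPM, and Ccr2, the receptor for the monocyte chemokine CCL2, at 66.7 and 38.2 CPM with a ratio of 0.573 (0.458 to 0.716).

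Interferon-gamma genes were lower for 16 of 20 (6109 of 10237 over all genes), with a median of -0.23. Called lower was 1 of 12 (1.46% over all genes), Iigp1, an immunity-related GTPase gene, at 77.9 and 40.2 CPM. Irf1, the primary factor of that response, was at 190.0 and 204 CPM with a ratio of 1.07 (0.962 to 1.2), and Psmb8, an immunoproteasome subunit, at 470.1 and 404 CPM. Cytokine receptor genes had a median of -0.06, with Ifngr2 called higher and Il12rb2, a chain of the IL-12 receptor, called lower among 16 tested (0.156% and 1.46% over all genes). Genes of T cell receptor signalling, at a median of -0.08 with 0 of 19 called, of translation and growth, at 0.01 with 0 of 13, and of the immediate early response, at 0.08 with 0 of 15, had no call. All 14 cell cycle genes were lower, with a median of -1.39, but 3 flox cells held 32.9% of the list's flox UMIs, and the per-cell medians were 7.92 and 7.50 per 10000 UMIs.

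Restricted to the cells with 3 or 4 markers, which were selected more strictly by the same genes after their values had been seen, fewer genes were called. These cells hold fewer UMIs than all selected cells, which widens the intervals. Of 3011 genes tested 2 were called higher (0.0664%) and 16 lower (0.531%). Gpr171, a G protein-coupled receptor gene, was the higher one with known protein, at 28.7 and 64.5 CPM, and Gm9844 was the other, at 17.1 and 50.6 CPM. S100a6 was at 148 and 27.9 CPM (44.2% of its flox UMIs in 1 cell), Ly6a, which encodes the Sca-1 antigen, at 123 and 57.3 CPM, Ctla4 at 147 and 62.5 CPM, Itgb1, an integrin chain of memory cells, at 95.2 and 38.2 CPM, and Yes1, a Src-family kinase gene, at 73.7 and 13.4 CPM, all called lower. Lgals1, which encodes galectin-1, was called lower with 51.9% of its flox UMIs in 1 cell. The effector median was -0.91, with 25 of 26 lower and 5 of 13 called (0.531% over all genes), and the naive median 0.04. The lower effector level did not extend to the cells with 4 markers. Per 10000 UMIs of the cell, the effector medians were 15.3 in flox and 9.91 in knockout cells with 3 markers, but 10.8 and 13.6 with 4.

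In these cells the interferon list had a median of -0.44, with 17 of 19 lower (4817 of 8373 over all genes there). Called lower was 1 of 4 (0.531% over all genes there), Ifi27l2a at 479 CPM (439 to 521) in the flox library and 235 CPM (214 to 258) in the knockout library. Among female cells with 3 or 4 markers (74 flox and 71 knockout) the median was -0.06, with 8 genes higher and 10 lower, and among male cells, of which 4 were flox, -1.50 over 7 genes. Isg15 was at 44.9 and 26.3 CPM and Ifit3 at 21.6 and 10.3 CPM, and Ifit1, of the same family, at 8.09 and 13.4 CPM, a ratio of 1.66 (0.754 to 4.03) whose interval includes 1.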

How the data were processed

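The 2 libraries are droplet single-cell RNA libraries of live CD45+ cells sorted from digested RPE and choroid, for which the labels' protocols name a 3' kit (v2). Reads were aligned to mm10 and counted by the authors with Cell Ranger, per the submitters' processing notes, of version 4 (flox) and 7.0.1 (knockout), per the file headers. The deposited values are whole-number UMI counts for every gene in every barcode. The flox matrix holds 1002803 barcodes, more than a v2 barcode list has, so its kit version is uncertain, and the knockout matrix holds 4096. They hold 38623933 and 35944330 UMIs, so counting error limits low genes most.

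UMIs were summed over cells and divided by the cells' total (CPM). Intervals are exact: Poisson for levels, binomial (Clopper-Pearson) for shares, conditional binomial for ratios, and Newcombe's for differences of shares. They cover counting error only, and cells of 1 library are not replicates. Log2 ratios have 0.5 UMIs added. Sex was read from Xist and Y-linked UMIs. Genes named are list genes with most UMIs, up to 12 called in each direction that at least 10% of cells of the higher library held, and up to 15 in each direction against other T cells; gate, sex-linked, mitochondrial, ribosomal and receptor V genes were left out. Genes named in cells with 3 or 4 markers, and a few list genes, were chosen after their values were seen. The members and the 23 gene lists were chosen with earlier results of these data known. Scrublet in scanpy 1.11.5 called doublets. Scripts used Python 3.11.15, numpy 2.4.6 and scipy 1.17.1 and were tested on simulated data. The alternatives were 19 planned settings of filters, rule, depth, sex, scaling and thresholds and 3 added after seeing the data. A few genes of the lists are not reported here by name.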

Additional observations from a re-analysis of the deposited data

Results flagged for a closer look

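Some gene lists had medians of opposite sign, knockout against flox, in the selected cells and in the other T cells of the same libraries. With 1 library per genotype the difference was not tested, and only lists with both medians over 0.1 in size are given. The median log2 ratio of the effector and memory list was -0.43 in the selected and 0.25 in the other T cells, that of the tissue residency list -0.52 and 0.40, and that of the cell cycle list -1.39 and 0.41. The natural killer list had -0.28 and 0.52, the naive and quiescence list 0.14 and -0.15, and the B cell list 0.94 and -1.25. In the selected cells, 1 knockout cell, called a doublet, held 53.1% of the knockout UMIs of the B cell list. For the cell cycle list 3 flox cells held 32.9% of the flox UMIs, and its median was -0.15 after thinning to 3000 UMIs before the rule.

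Flox barcodes of 100 UMIs or fewer, which no comparison used, held 205 UMIs of Lef1 (63.8 CPM) and 11234 of Ccl5 (3496 CPM), against 649 and 1710.2 CPM in the flox selected cells. Ifi27l2a and S100a6 were at 1344 and 1847 CPM there, against 982 and 710.3 CPM. These barcodes are in the flox matrix only, so the knockout library has no like measure.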

How the results depend on the processing

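No paired analysis was possible because each genotype has 1 library. Each number of calls below is a total under its setting, not a count of the same genes. In place of 5 genes, the number called higher was 2 with doublets removed, 3 with a CD3 sum of at least 1, 1 after thinning to 3000 UMIs, 8 in female and 8 in male cells, 3 with the mean of each cell's CPM, 3 at a fold of 2 and 43 with no minimum level. Settings added after seeing the data gave 1 (2 or more markers), 2 (3 or 4 markers) and 2 (highest cell left out). In place of 47, the number called lower was 31 after thinning, 126 in male cells, 22 in CD8 cells, 15 at a fold of 2, 195 with no minimum level, 26 with 2 or more markers and 16 with 3 or 4. The interferon median moved from -1.03 to -2.02 in male, -0.67 in CD8 and -0.65 in CD4 cells and -0.44 with 3 or 4 markers, and kept its sign in all 21 settings that gave it. The share of T cells differed by 4.66 points in female cells and by 3.90 for cells with 3 or 4 markers, whose share of the selected cells differed by 37.5 points in male cells. The CD8 difference was 1.16 points (-7.59 to 9.88) after thinning before the rule and 2.63 (-6.63 to 11.9) with 2 or more markers.

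Signs turned as follows, as log2 ratios. Cd74 was -0.33 with doublets removed, -0.52 with a CD3 sum of at least 1, -0.31 in male cells, -1.44 in CD4 cells, -0.074 with 2 or more markers and -0.25 without the highest cell. Top2a was 0.99 in male cells, 0.61 in CD8 cells and 0.35 with 3 or 4 markers, and Hist1h2ap 1.04 in CD8 cells and 0.87 with 3 or 4 markers. Ifitm3 was 0.38 and Klra9 1.48 in CD8 cells. The interferon-gamma median was 0.016 in CD4 cells and the cell cycle median 0.030 with 3 or 4 markers. The cause was not tested. Of 264 values of named genes under other settings 64 left the counting interval without turning.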

Other observations

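Ribosomal protein genes took 31.1% of the UMIs of the selected cells in the flox library and 34.5% in the knockout library, against 24.8% and 24.1% in the other T cells.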
